A study of Mus musculus with 50 samples.

Results

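The integrated stress response genes described here are Atf4, Atf5, Ddit3, Trib3, Sesn2, Chac1, Gdf15, Asns, Psat1 and Phgdh. They were chosen by name, and each symbol matched 1 Ensembl gene of the deposited count table, giving 10 genes of the 52636 listed and of the 38478 with at least 1 count. Their levels were followed in 50 RNA-seq libraries of whole thyroid of male C57BL/6 mice, with 5 libraries in each of 10 groups. The age is given as 10 to 12 weeks in the series text and as 10 to 14 weeks in the treatment protocol. Antibodies went in as 1 intraperitoneal dose: anti-ragweed isotype control (RW) at 40 mg/kg, anti-Jag1 with anti-Jag2 (aJ1aJ2) at 20 mg/kg each, anti-Notch1 with anti-Notch2 (aN1aN2) at 5 and 10 mg/kg, or these with anti-Notch3 at 20 mg/kg (aN1aN2aN3). Groups of RW, aJ1aJ2 and aN1aN2 were taken at 15 hours and at 5 days. At 7 days the sample IDs fall into 2 series: set 1 held RW and aJ1aJ2, and set 2 held aJ1aJ2 and aN1aN2aN3, so that aN1aN2aN3 could be compared only with aJ1aJ2. The series text also describes daily thyroxine and triiodothyronine injections, but no label says which animals received them. The labels number the thyroids of a group without naming animals or cultures, so p-values measure the spread between these samples.

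The integrated stress response is the pathway by which several kinases, each sensing another stress, phosphorylate the translation initiation factor eIF2alpha. Most translation then slows while the mRNA of the transcription factor Atf4 is translated more, and Atf4 with its partners switches on genes for amino acid supply, for redox balance and for the arrest or death of the cell. Because Atf4 and Atf5 are controlled largely at translation, their mRNA level need not follow the activity of the protein. Mitochondrial faults also feed into this pathway, and Gdf15 is a secreted factor often read as a sign of it. The thyroid follicle cell makes very large amounts of 1 secreted protein, thyroglobulin (Tg), and carries a constant load of protein folding.

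The libraries held between 15.3 M and 52.8 M counts (median 28.3 M, with M for 1e6). All 11 markers of thyroid follicle cells had counts in every group, and outside set 2 the mean share of Tg among all counts was 21.5% to 30.4% per group. Set 2 stood apart, with Tg at 1.15% to 2.82% in aJ1aJ2 and 3.73% to 6.5% in aN1aN2aN3. Among the rest, RW 5 days replicate 3 had the lowest Tg share (0.450%), the highest share of 9 skeletal muscle markers (14.0%) and 10.6% mitochondrially encoded counts, and aJ1aJ2 5 days replicate 3 resembled it (2.39%, 10.3% and 8.68%). Muscle markers varied from 0.0395% to 14.0% between libraries. The aN1aN2 libraries at 15 hours carry another series of sample IDs than RW and aJ1aJ2 at 15 hours, so for that comparison the ID series and the antibody cannot be told apart.

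The promoters shown are those of Sesn2, Trib3 and Ddit3, which were called without overlap in 1 comparison below, and of Asns and Chac1, known Atf4 targets. Atf4 acts through a short composite site, the C/EBP-ATF response element. The windows are RefSeq's on GRCm38.p6 and run from 250 bases before to 50 bases after the annotated start, 5′ to 3′ on the strand of the gene: Sesn2 at chr4:132510407-132510706 (minus strand), Trib3 at chr2:152344011-152344310 (minus strand), Ddit3 at chr10:127290543-127290842 (plus strand), Asns at chr6:7693160-7693459 (minus strand) and Chac1 at chr2:119350992-119351291 (plus strand). Capitals mark 8 letters that match TGATGNAA or TGNTGCAA on either strand, and a string can match both.
Sesn2: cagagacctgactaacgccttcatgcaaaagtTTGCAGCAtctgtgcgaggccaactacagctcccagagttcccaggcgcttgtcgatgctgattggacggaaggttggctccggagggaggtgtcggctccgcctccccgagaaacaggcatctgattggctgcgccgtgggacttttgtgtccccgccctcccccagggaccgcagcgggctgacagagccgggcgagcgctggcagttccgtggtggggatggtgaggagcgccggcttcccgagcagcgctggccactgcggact
Trib3: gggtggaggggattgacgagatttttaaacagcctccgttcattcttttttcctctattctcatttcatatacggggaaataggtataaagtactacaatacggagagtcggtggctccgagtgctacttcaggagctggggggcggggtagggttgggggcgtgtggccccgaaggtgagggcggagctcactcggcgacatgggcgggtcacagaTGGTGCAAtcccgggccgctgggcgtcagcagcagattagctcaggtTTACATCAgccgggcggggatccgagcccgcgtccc
Ddit3: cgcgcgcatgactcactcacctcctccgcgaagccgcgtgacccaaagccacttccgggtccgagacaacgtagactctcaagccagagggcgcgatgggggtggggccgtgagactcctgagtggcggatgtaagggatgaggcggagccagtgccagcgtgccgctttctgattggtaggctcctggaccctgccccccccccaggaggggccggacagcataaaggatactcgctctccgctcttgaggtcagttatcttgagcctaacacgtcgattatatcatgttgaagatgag
Asns: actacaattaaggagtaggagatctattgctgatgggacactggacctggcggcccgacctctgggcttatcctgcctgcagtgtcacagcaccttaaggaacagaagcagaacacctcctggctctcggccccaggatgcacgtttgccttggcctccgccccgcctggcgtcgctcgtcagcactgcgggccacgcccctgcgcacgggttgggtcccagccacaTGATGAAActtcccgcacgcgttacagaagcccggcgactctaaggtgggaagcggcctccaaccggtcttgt
Chac1: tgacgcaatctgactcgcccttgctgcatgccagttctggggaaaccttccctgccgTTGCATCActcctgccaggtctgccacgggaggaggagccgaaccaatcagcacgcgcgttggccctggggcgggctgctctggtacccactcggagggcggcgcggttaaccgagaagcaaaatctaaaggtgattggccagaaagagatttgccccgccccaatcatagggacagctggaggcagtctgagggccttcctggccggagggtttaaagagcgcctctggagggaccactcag
TGATGNAA occurred in the windows of 3 of the 10 members, Asns, Chac1 and Trib3, against 4.51% of 27025 genes with a window. TGNTGCAA, searched after the promoters had been read, occurred in 4 of 10 (Chac1, Psat1, Sesn2 and Trib3) against 3.72% of genes. Trib3 holds a match to each, at different positions, and the single Chac1 match holds for both patterns. The Ddit3 window shown holds neither. A match is only a string of letters, and its absence from a window tells nothing about the factor.

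Compared per length within a group (FPKM, which divides by gene length and depth), Atf4 had the highest level of the members in each of the 10 groups and Phgdh the lowest. In RW at 15 hours the median FPKM of Atf4 was 59.8, that of Atf5 18.2 and that of Ddit3 3.67, whereas Phgdh was at 0.0362. Atf5 held second place in all 8 groups outside set 2. Sesn2, in the middle of the order in those groups, was second in aN1aN2aN3 at 5.87, and Atf5 there was next to last at 0.595. Phgdh rested on 2 to 24 counts in the lowest library of each group, so its values are imprecise.

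The levels below are in CPM, counts per 1e6 counts of the library, with library sizes scaled by TMM over all 50 libraries, and differences are log2 fold changes with their standard error (SE) from edgeR's quasi-likelihood test. A gene is called where its p, after Benjamini-Hochberg adjustment over all genes tested, was below 0.05. Group means of Atf4 lay between 125.2 and 217.8 CPM, a ratio of 1.74, and those of Asns (27.9 to 51.3) and Psat1 (17.2 to 31.8) were about as even. Without TMM scaling the Atf4 means lay between 131.5 and 183.0 CPM, and the highest was aN1aN2 at 15 hours in place of RW at 5 days (163.0). Group means of Atf5 differed by a ratio of 34.1 and those of Gdf15 by 17.3. Atf5 was at 42.4 to 83.6 CPM in the 8 groups outside set 2 and at 4.89 and 2.45 CPM inside it. Gdf15 was lowest at 5 days, with means of 0.615 to 1.80 CPM in the 3 groups, and highest in RW of 7 days set 1 at 10.6 CPM. The 5-day groups carry sample IDs of the same series as aN1aN2 at 15 hours, where Gdf15 was at 2.42 CPM. In RW and aJ1aJ2 at 15 hours, of another series, it was at 6.09 and 6.00 CPM, so time and ID series cannot be told apart for these levels. Libraries within a group could differ more than the groups: Chac1 ranged from 0.883 to 117.5 CPM over the 50 libraries.

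**Figure D1:**
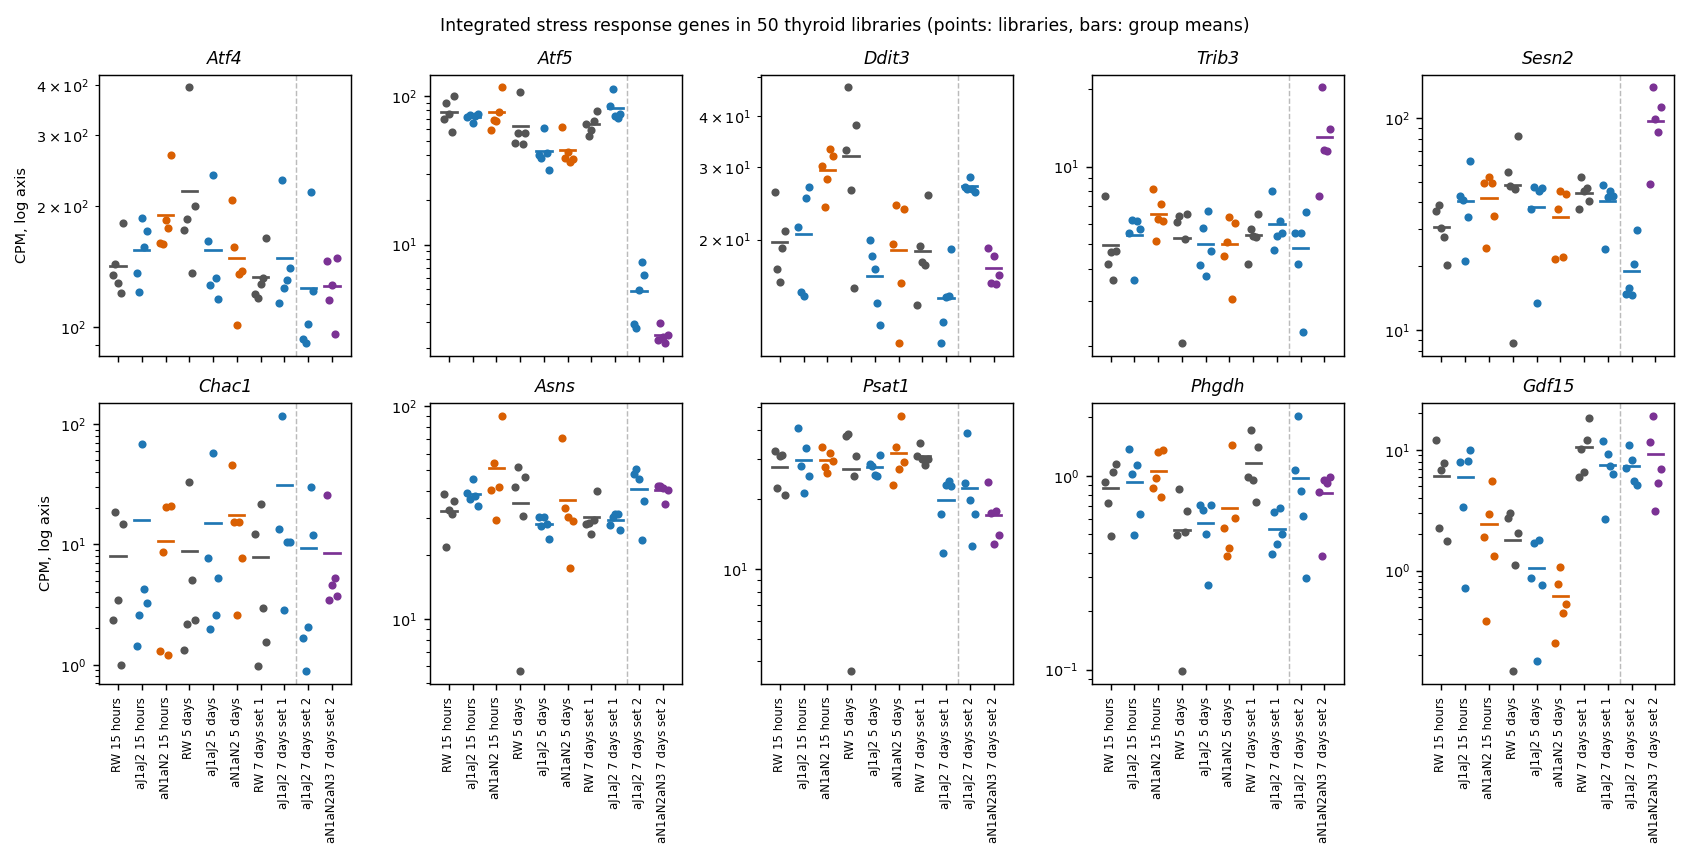
CPM (log axis) of each member in each library (points), with group means (bars), by group; the dashed line separates 7 days set 2. Atf5 in set 2 lies between 2.17 and 7.60 CPM, below every other library, while the group means of Sesn2 and Trib3 are highest in aN1aN2aN3 and Chac1 spreads widely within most groups.

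At 7 days in set 2, aN1aN2aN3 thyroids had more Sesn2 and Trib3 mRNA and less Ddit3 and Atf5 mRNA than aJ1aJ2 thyroids. These 4 of 10 members were called, 2 in each direction, and Atf4 itself was at 126.7 ± 21.7 CPM against 125.2 ± 52.5 (SD, n = 5 each). Of all 18450 genes tested here 19.6% were called, and the groups did not overlap for 3 of the 10 members against 15.1% of genes. The median log2 fold change of the members was -0.12, against -0.07 over all genes.

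Sesn2 (ENSMUSG00000028893) encodes a stress-induced sestrin that restrains mTOR signalling when leucine is short. It was at 49.0, 139.8, 98.9, 86.3 and 112.8 CPM in aN1aN2aN3 replicates 1 to 5, and at 14.7, 15.9, 14.7, 20.5 and 29.6 CPM in aJ1aJ2. Every aN1aN2aN3 library was above every aJ1aJ2 library, and 4 of the 5 were above all other libraries of the series. Sesn2 rose by 2.29 on the log2 scale (SE 0.29, edgeR adjusted p = 0.00114), from 19.1 ± 6.34 to 97.4 ± 33.6 CPM.

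Trib3 (ENSMUSG00000032715) encodes a pseudokinase that Atf4 and the Ddit3 protein induce and that in turn holds Atf4 back. In aN1aN2aN3 it was at 7.65, 20.3, 11.6, 11.5 and 13.9 CPM, and in aJ1aJ2 at 5.50, 4.18, 5.50, 2.27 and 6.67 CPM. The groups did not overlap, the closest libraries being 7.65 and 6.67 CPM. Trib3 rose by 1.37 on the log2 scale (SE 0.31, edgeR adjusted p = 0.0112).

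Ddit3 (ENSMUSG00000025408) encodes CHOP, a transcription factor of prolonged stress that favours cell death. Its levels in aJ1aJ2 were close to each other, at 26.9, 26.6, 28.5, 26.6 and 26.1 CPM, and those in aN1aN2aN3 were 19.1, 15.7, 18.3, 15.6 and 16.4 CPM. No library of one group reached the other. Ddit3 fell by 0.72 on the log2 scale (SE 0.13, edgeR adjusted p = 0.00412). Its exons overlap those of Mars on the opposite strand, whose unscaled CPM was 70.5 ± 13.5 in aN1aN2aN3 and 63.2 ± 17.8 in aJ1aJ2, and a second Ddit3 gene model on the same strand has no row in the count table, so its count is uncertain to that extent.

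Atf5 (ENSMUSG00000038539) is a transcription factor related to Atf4 and linked to the mitochondrial protein-folding response. It was at 2.28, 2.95, 2.39, 2.18 and 2.46 CPM in aN1aN2aN3 and at 2.92, 2.74, 4.98, 7.60 and 6.23 CPM in aJ1aJ2. The groups overlapped at their edges. Atf5 fell by 1.06 on the log2 scale (SE 0.30, edgeR adjusted p = 0.0307), but the call was lost in 7 of 10 fits that left out 1 library: each aN1aN2aN3 replicate, and aJ1aJ2 replicates 3 and 4 (adjusted p from 0.0511 to 0.0721). Atf5 shares exons with Nup62 and Il4i1 on the opposite strand, and it is not stated whether counting used strand. Unscaled Nup62 was 53.5 ± 8.34 CPM in aN1aN2aN3 against 32.1 ± 2.21 in aJ1aJ2, and Il4i1 was 5.82 ± 1.05 against 2.98 ± 0.65.

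The other 6 members were not called in set 2. Asns was at 40.2 ± 3.07 against 40.7 ± 11.1 CPM, Psat1 at 17.2 ± 4.25 against 22.4 ± 9.87 and Gdf15 at 9.22 ± 6.37 against 7.37 ± 2.33 CPM. Several measures of tissue makeup moved with the groups of set 2. The Tg share did not overlap between them (3.73% to 6.5% in aN1aN2aN3, 1.15% to 2.82% in aJ1aJ2), nor did the C cell markers Calca and Calcb (2.24% to 3.08% against 0.451% to 1.91%) or the mitochondrially encoded share (0.704% to 1.73% against 2.02% to 3.57%). The sums of markers that follow are in CPM without TMM scaling, while the calls come from the TMM-scaled fit. The 4 white and general adipose markers summed to 58.28 to 292.5 unscaled CPM in aN1aN2aN3 against 417.0 to 762.5 in aJ1aJ2, with 2 of 4 called lower. The 2 brown adipose markers summed to 25.8 to 291.2 against 394.0 to 1713 unscaled CPM, with 1 of 2 called lower. The 3 endothelial markers summed to 174.7 to 264.9 against 113.3 to 159.0 unscaled CPM, with 2 called higher and 1 lower. The part of the C cell, adipose and endothelial markers and of the mitochondrial share in these results was not tested. With the log2 Tg share as a covariate, 0 of 10 members and 3 of 18450 genes were called by edgeR, and Sesn2 was at 1.67 (adjusted p = 0.185) and Trib3 at 0.11 (adjusted p = 0.947). Since the Tg share and the antibody separate the same libraries, they cannot be told apart here. In bulk tissue, fewer cells of a type and less RNA per cell cannot be told apart either.

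**Figure D2:**
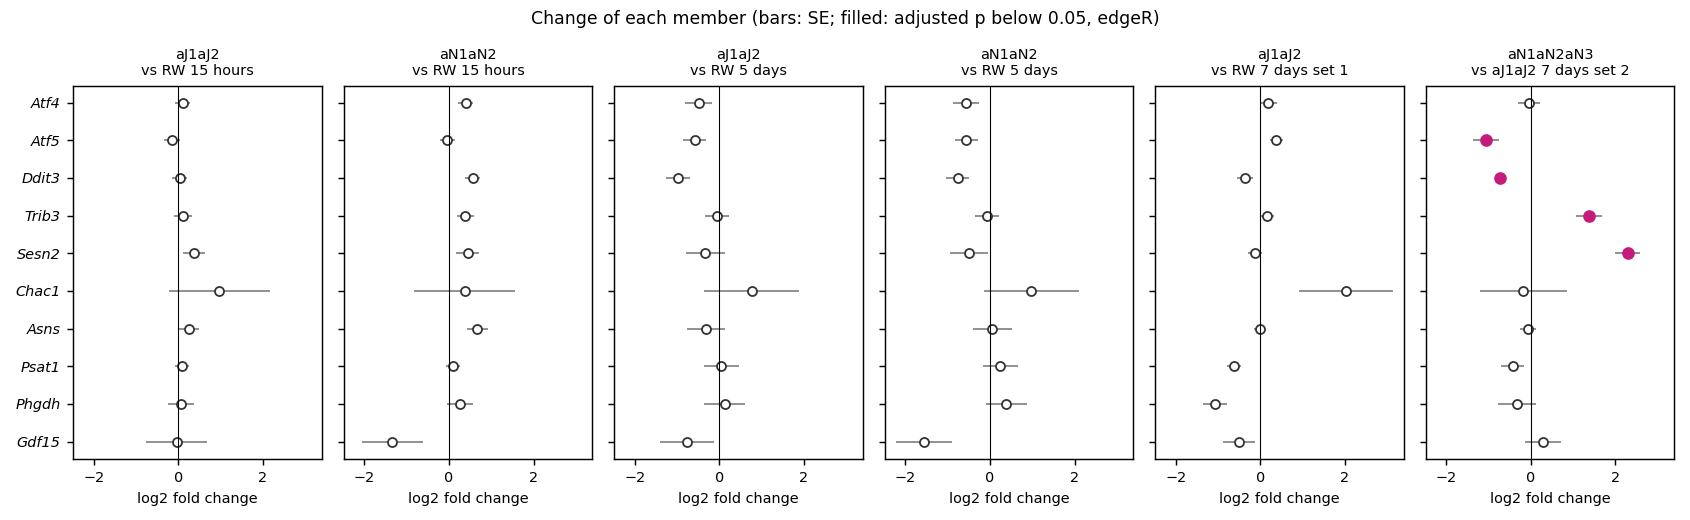
Log2 fold change of each member (points, with SE as bars) in the 6 comparisons; filled points were called by edgeR (adjusted p below 0.05). Filled points occur only in the comparison of aN1aN2aN3 with aJ1aJ2 in 7 days set 2, where Sesn2 is at 2.29 and Atf5 at -1.06.

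The same antibody pair at the same day gave other levels in set 2 than in set 1. Between these aJ1aJ2 groups 64% of 19570 genes were called, and the groups did not overlap for 43.3% of genes and for 2 of 10 members. Of the members, 4 of 10 were called: Atf5 was lower in set 2 by a log2 difference of -4.08 (SE 0.24, edgeR adjusted p = 2.3e-11), Sesn2 by -1.08 (adjusted p = 0.000784), while Ddit3 was higher by 0.93 (adjusted p = 2.74e-05) and Asns by 0.50 (adjusted p = 0.0152). The Asns call was lost without aJ1aJ2 set 2 replicate 2 (adjusted p = 0.0534). Sesn2 was at 40.7 ± 9.56 CPM in set 1, between the 19.1 of aJ1aJ2 and the 97.4 of aN1aN2aN3 in set 2. Il4i1, at most 0.267 unscaled CPM in any library outside set 2, was 2.29 or more in every library of it. Markers of other cell types differed between these aJ1aJ2 groups too. Their sums are again in CPM without TMM scaling, and the calls come from the TMM-scaled fit. The 2 C cell markers summed to 4512 to 19130 unscaled CPM in set 2 and 1118 to 4255 in set 1 (1 of 2 called, higher). The 3 endothelial markers summed to 113.3 to 159.0 against 285.8 to 404.1 unscaled CPM (3 of 3 called, lower). The 3 fibroblast markers summed to 709.4 to 2311 against 404.4 to 609.0 unscaled CPM (3 of 3 called, 1 higher and 2 lower). The 2 parathyroid markers had medians of 44710 and 4665 unscaled CPM with overlapping ranges (0 of 2 called). The part of these markers in the members' levels was not tested. What set 2 shares beyond the ID series is not given, so the difference between the sets was measured but its source was not tested.

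At 15 hours no member was called for either antibody pair. Under aJ1aJ2, 0 of 10 members were called by edgeR against 0.573% of 18513 genes. An unadjusted p below 0.05 was found for 0 members and 1220 genes, and DESeq2 called 0 members and 318 of 22282 genes. Groups did not overlap for 0 of 10 members and for 1.81% of genes. The median log2 fold change of the members was 0.09, against -0.03 over all genes. Asns, which makes asparagine from aspartate and is a classical Atf4 target, was at 38.7 ± 4.33 CPM against 32.1 ± 6.43 in RW, with all 5 aJ1aJ2 libraries above the RW mean.

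Under aN1aN2 at 15 hours, 0 of 10 members were called by edgeR against 1.68% of genes, and 0 by DESeq2 against 935 of 23604 genes. Groups did not overlap for 0 of 10 members and 5.12% of genes. A log2 fold change above 0 was found for 8 of 10 members and 51.3% of all genes. The median log2 fold change of the members was 0.38, against 0.01 over all genes. Ddit3 was at 30.3, 24.0, 28.1, 33.2 and 31.96 CPM in aN1aN2 and at 26.1, 16.9, 15.7, 19.1 and 21.0 CPM in RW. Only RW replicate 1 reached into the aN1aN2 range, and the log2 fold change was 0.56 (SE 0.18, edgeR adjusted p = 0.148). Atf4 had a log2 fold change of 0.40 (SE 0.18, adjusted p = 0.313) with all 5 libraries above the RW mean, and Asns one of 0.66 (SE 0.25, adjusted p = 0.227), with aN1aN2 replicate 5 at 90.5 CPM and the other 4 between 29.2 and 54.3. Those 3 members had an unadjusted p below 0.05, as did 2674 of 18513 genes. Gdf15 had the largest change of the members and went the other way, at 2.42 ± 1.97 against 6.09 ± 4.21 CPM in RW. All 5 aN1aN2 libraries were below the RW mean of Gdf15, and its log2 fold change was -1.34 (SE 0.73, edgeR adjusted p = 0.432). The aN1aN2 replicate with the highest Atf4, Atf5 and Asns levels, replicate 5, also had the lowest Tg share of its group (7.37%). Without it, the log2 fold change of Asns went from 0.66 to 0.36 and that of Atf4 from 0.40 to 0.26. With the log2 Tg share as a covariate they were 0.40 for Asns and 0.27 for Atf4, and 0 of 10 members and 482 genes were called by edgeR. Replicate 5 of aN1aN2 also held the highest shares of airway epithelium (0.761%) and cartilage markers (0.118%) of the 50 libraries. In aN1aN2 replicate 2 these were 0.270% and 0.0761%, and in RW replicate 5 they were 0.593% and 0.0114%. Of 2 neutrophil markers tested 1 was called, higher, and the groups did not overlap for 2 of them. The part of these markers was not tested.

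At 5 days 7 of 10 members under aJ1aJ2 and 6 of 10 under aN1aN2 had a log2 fold change below 0 against RW, with no call. Only 44.2% and 41.5% of all genes had one above 0, so most genes went the same way. Under aJ1aJ2, 0 of 10 were called by edgeR against 0.179% of 18434 genes, with 2 members and 2167 genes below an unadjusted p of 0.05 and 1 member and 477 of 18685 genes called by DESeq2, and groups did not overlap for 0 of 10 members and 3.81% of genes. Under aN1aN2, 0 of 10 were called by edgeR against 0% of genes, with 2 members and 1848 genes below an unadjusted p of 0.05 and 0 members and 486 genes called by DESeq2. Groups there did not overlap for 0 of 10 members and 2.13% of genes. Median log2 fold changes of the members were -0.33 and -0.29, against -0.06 and -0.07 over all genes. Both comparisons use the same 5 RW libraries.

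Ddit3 in RW at 5 days was at 33.0, 47.1, 26.4, 15.3 and 38.1 CPM. In aJ1aJ2 it was at 19.9, 18.2, 16.9, 14.0 and 12.4 CPM, and in aN1aN2 at 19.5, 24.2, 11.2, 15.7 and 23.8 CPM. With TMM scaling, 4 of 5 RW libraries were above every library of both antibody groups, and RW replicate 4 lay within their range. For RW replicate 3 this rested on the scaling: unscaled it was at 15.4 CPM, below the 20.2 of aJ1aJ2 replicate 1. Unscaled, RW replicates 1, 2 and 5 were at 27.7, 39.15 and 30.9 CPM, above every aJ1aJ2 library. The log2 fold changes were -0.97 (SE 0.28, edgeR adjusted p = 0.203) for aJ1aJ2 and -0.76 (SE 0.28, adjusted p = 0.345) for aN1aN2. Without RW replicate 3 they were -1.01 (adjusted p = 0.118) and -0.81 (adjusted p = 0.22). DESeq2 called Ddit3 under aJ1aJ2 with an adjusted p of 0.04.

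RW 5 days replicate 3, the library poor in Tg and rich in muscle markers, held the lowest level of 6 members over all 50 libraries: Asns at 5.69, Trib3 at 2.06, Psat1 at 3.63, Phgdh at 0.0982, Gdf15 at 0.147 and Sesn2 at 8.69 CPM. It was the lowest of the 50 libraries for these 6 members without TMM scaling too. It held the highest Atf4 of the 50 libraries with TMM scaling, at 394.1 CPM against 135.9 to 199.3 in the other 4 RW libraries. Its TMM factor was 0.5842, and unscaled its Atf4 was at 230.2 CPM, below the 255.4 of aN1aN2 15 hours replicate 5 and above the 122.8 to 161.5 of the other 4 RW libraries. Leaving it out gave 0 called members in both comparisons, while the genes called over the whole table went from 33 to 197 for aJ1aJ2 and from 0 to 9 for aN1aN2. Gdf15, whose product is a circulating cytokine that reduces food intake, was at 0.252 to 1.07 CPM in aN1aN2 and, apart from that replicate, at 1.11 to 2.97 CPM in RW, with a log2 fold change of -1.55 (SE 0.66, edgeR adjusted p = 0.435).

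Whether an antibody effect changed between 15 hours and 5 days was asked with a contrast over both times. For aN1aN2, 1 of 10 members was called, against 1.8% of 19337 genes: the Ddit3 effect was lower at 5 days than at 15 hours by a log2 difference of -1.33 (SE 0.34, edgeR adjusted p = 0.0383). Its group means were 29.5 ± 3.63 CPM against 19.8 ± 4.07 in RW at 15 hours, and 18.9 ± 5.53 against 31.98 ± 12.0 at 5 days. The call was lost in 13 of 30 fits that left out 1 library (RW 15 hours replicates 2 to 5, RW 5 days 1, 2 and 5, aN1aN2 15 hours 1, 4 and 5, aN1aN2 5 days 1, 3 and 4), with adjusted p up to 0.0945, and without the count filter (adjusted p = 0.0641). Because aN1aN2 at 15 hours carries other sample IDs than its RW group, the ID series enters this difference too. For aJ1aJ2, 0 of 10 members were called, against 0.636% of genes. Ddit3 had a log2 difference of -1.03 (SE 0.34, adjusted p = 0.183) and was the 1 member below an unadjusted p of 0.05, next to 2159 genes.

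At 7 days in set 1, the levels of 2 enzymes of serine synthesis did not overlap between aJ1aJ2 and RW thyroids, but neither was called. Of 10 members 0 were called by edgeR, as were 0% of 16954 genes, of which 1968 had an unadjusted p below 0.05. DESeq2 called 0 members too, though 1 got no adjusted p, and 476 genes. Groups did not overlap for 2 of 10 members and for 3.51% of genes. Phgdh, the first and rate-limiting enzyme that draws serine from glycolysis, was at 0.395, 0.649, 0.443, 0.679 and 0.502 CPM in aJ1aJ2 and at 0.983, 1.72, 0.956, 0.729 and 1.41 CPM in RW. All aJ1aJ2 libraries were below all RW libraries, on 53 counts in all in aJ1aJ2 and 130 in RW, with a log2 fold change of -1.08 (SE 0.28, edgeR adjusted p = 0.186). Psat1, the aminotransferase of the next step, was at 17.3, 11.8, 23.1, 24.1 and 22.9 CPM against 30.7, 35.1, 29.97, 28.0 and 29.8 CPM in RW. Again no library overlapped, and the log2 fold change was -0.62 (SE 0.17, adjusted p = 0.207). In the list of 8 other amino acid and one-carbon enzymes, 6 had a log2 fold change above 0 and 2 below, 0 were called and 0 did not overlap. Atf5 was higher in all 5 aJ1aJ2 libraries than the RW mean, at 83.6 ± 16.6 against 65.3 ± 9.74 CPM, with a log2 fold change of 0.38 (SE 0.16, adjusted p = 0.392). The median over the members was -0.07, against 0.01 over all genes. For the change of the aJ1aJ2 effect from 15 hours to this set, 0 of 10 members were called, against 0.121% of 21546 genes. An unadjusted p below 0.05 was found for 0 members and 1452 genes.

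Chac1 (ENSMUSG00000027313), an enzyme that breaks down glutathione and an Atf4 target, varied widely within groups. In aJ1aJ2 of 7 days set 1 it was at 13.4, 117.5, 2.82, 10.4 and 10.4 CPM, and in RW at 12.1, 0.981, 21.5, 2.97 and 1.55 CPM. The single library at 117.5 CPM carries most of the group mean of 30.9 ± 48.6, and the groups overlap. Its muscle marker share was 9.89% and its Tg share 8.87%, the lowest of its group. The log2 fold change of 2.02 (SE 1.11, edgeR adjusted p = 0.494) became 0.33 (adjusted p = 0.833) with the muscle share as a covariate. With the Tg share as a covariate instead it became 0.46 (adjusted p = 0.843). Similar single high values were 67.7 CPM in aJ1aJ2 15 hours replicate 3 (muscle share 6.73%), 57.3 in aJ1aJ2 5 days replicate 3 (10.3%), 46.0 in aN1aN2 5 days replicate 1 (8.96%) and 33.0 in RW 5 days replicate 3 (14.0%).

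Over the 50 libraries, with group means removed, log2 Chac1 and the log2 muscle share had r = 0.934 and rho = 0.935, and r = 0.939 without the 2 libraries farthest from the median of the muscle share. The permutation p, with libraries permuted within groups, was 1e-05, the smallest that 100000 permutations can give (4.29e-05 for r and 6e-05 for rho after adjustment over 30 relations). These 30 relations, of 10 members with the shares of Tg, muscle markers and mitochondrially encoded genes, were added after the data had been seen, and 21 passed both tests. Other genes were not tested against these shares, so the relations cannot be read as particular to the members. Sesn2 went with the Tg share (r = 0.866, rho = 0.749, without 2 libraries 0.746), as did Trib3 (r = 0.668, rho = 0.622, without 2 libraries 0.559) and Gdf15 (r = 0.695, rho = 0.591, without 2 libraries 0.595). Atf4 went the other way, with r = -0.762 (rho = -0.623, without 2 libraries -0.687), and went up with the muscle share (r = 0.662, rho = 0.613, without 2 libraries 0.605). For Ddit3, Asns and Phgdh none of these 9 relations passed. All points share the depth of their library, and shares of 1 library are tied to each other.

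**Figure D3:**
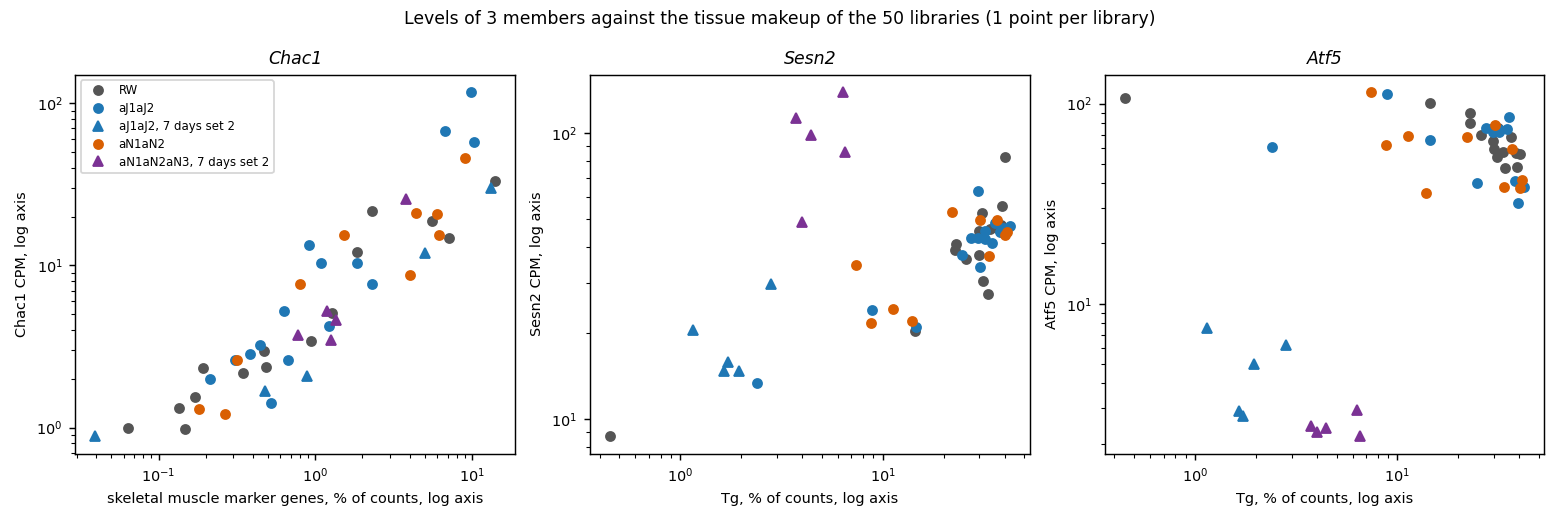
CPM of Chac1 against the share of 9 skeletal muscle markers, and of Sesn2 and Atf5 against the share of Tg, 1 point per library, all axes logarithmic; colours give the antibody and triangles 7 days set 2. Chac1 climbs from 0.883 to 117.5 CPM along the muscle axis, whereas the aN1aN2aN3 triangles lie above the other libraries of similar Tg share for Sesn2 and all set 2 triangles lie far below the rest for Atf5.

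The members did not move as 1 block between libraries. Of 45 pairs, tested on log2 CPM with group means removed and with p adjusted over the 45, 14 passed by both Pearson and Spearman, 8 of them positive. Pairs of other genes were not tested, so this count cannot be read as particular to the members. Atf4 and Atf5 had r = 0.794 (rho = 0.637, without 2 libraries 0.714, adjusted permutation p = 9e-05), and Atf4 and Chac1 r = 0.697 (rho = 0.616, without 2 libraries 0.641). Trib3 and Sesn2 had r = 0.712 (rho = 0.685, without 2 libraries 0.701), and Gdf15 and Sesn2 r = 0.68 (rho = 0.563, without 2 libraries 0.565). Psat1 and Phgdh, consecutive enzymes of serine synthesis, had r = 0.613 (rho = 0.464, without 2 libraries 0.418). Chac1 ran against Gdf15 (r = -0.717, rho = -0.699, without 2 libraries -0.649), Trib3, Psat1 and Sesn2. Psat1 ran against Atf4 (r = -0.633, rho = -0.501, without 2 libraries -0.461) and Atf5 (r = -0.679, rho = -0.639, without 2 libraries -0.587). Without TMM scaling Psat1 and Atf4 had r = -0.384 and did not pass by Spearman (adjusted permutation p = 0.163). As a description over the 50 libraries and 12012 genes with a mean of at least 5 CPM, genes whose deviations were among those most like the mean of the members' standardised deviations were Aqp5 (r = 0.758), H13 (0.731), Tuba1c (0.719) and Rsph9 (0.712). With that mean, Asns had r = 0.705 and Ddit3 0.671, but Atf4 only 0.025 and Atf5 0.026.

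The rest of the pathway was followed through 55 other genes in 7 lists, of which 53 or 54 passed the count filter. In the 5 comparisons with RW 0 of them were called by edgeR, and 4 to 12 had an unadjusted p below 0.05. Among all genes tested, 1220 to 2674 had one. The number with a log2 fold change above 0 was 32 of 54 for aJ1aJ2 and 45 of 54 for aN1aN2 at 15 hours, 9 of 54 for each pair at 5 days and 42 of 53 for aJ1aJ2 at 7 days, and among all genes 43.9%, 51.3%, 44.2%, 41.5% and 51.2% had one. The tRNA synthetase Wars was called for the change of the aJ1aJ2 effect from 15 hours to 5 days (log2 difference -0.79, SE 0.18, edgeR adjusted p = 0.0365): it was at 97.6 ± 10.6 against 78.4 ± 8.59 CPM in RW at 15 hours and at 66.4 ± 7.54 against 92.4 ± 18.3 at 5 days.

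In set 2, aN1aN2aN3 against aJ1aJ2, 10 of 53 pathway genes were called, 5 higher and 5 lower, next to the 19.6% of all genes. Ddit4, an inhibitor of the mTOR complex, rose by 2.73 on the log2 scale (SE 0.26, edgeR adjusted p = 0.000404), from 9.06 ± 2.66 to 62.7 ± 20.2 CPM. Ppp1r15a, the stress-induced subunit that brings a phosphatase back to eIF2alpha, rose by 1.41 (SE 0.26, adjusted p = 0.00453), from 27.5 ± 9.07 to 76.3 ± 22.4 CPM. The amino acid transporter chain Slc3a2 rose by 0.89 (SE 0.19, adjusted p = 0.00927). Hspe1, a mitochondrial co-chaperonin, fell by 1.54 (SE 0.28, adjusted p = 0.00448), Psph, which completes serine synthesis, by 0.997 (SE 0.17, adjusted p = 0.00327), and Eif2s1, the gene of eIF2alpha itself, by 0.71 (SE 0.18, adjusted p = 0.0167). Exons of Hspe1, Psph and Ppp1r15a overlap those of Hspd1, Cct6a and Tulp2, so these counts are uncertain to that extent.

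By list, all 8 amino acid transporters tested had a log2 fold change above 0 and 2 were called, while 7 of 8 amino acid and one-carbon enzymes had one below 0 and 1 was called. Of all genes 45.8% had a log2 fold change above 0. Of 13 cytosolic tRNA synthetases 0 were called by edgeR, with 2 below an unadjusted p of 0.05, next to 6559 of 18450 genes. Among the 7 eIF2alpha kinases and phosphatase subunits 2 rose and 1 fell, of the 5 partner transcription factors 1 fell, of the 7 mitochondrial stress relay and chaperone genes 2 fell, and of the 5 other Atf4 targets tested 1 rose. Between the aJ1aJ2 groups of set 2 and set 1, 30 of 54 were called, 10 higher and 20 lower, next to 64% of all genes. There Ddit4 was at 9.06 ± 2.66 CPM in set 2 and 50.1 ± 9.46 in set 1, a log2 difference of -2.45 (SE 0.22, adjusted p = 6.08e-09). As for Sesn2, the set 1 level of Ddit4 lay between those of aJ1aJ2 and aN1aN2aN3 in set 2.

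**Figure D4:**
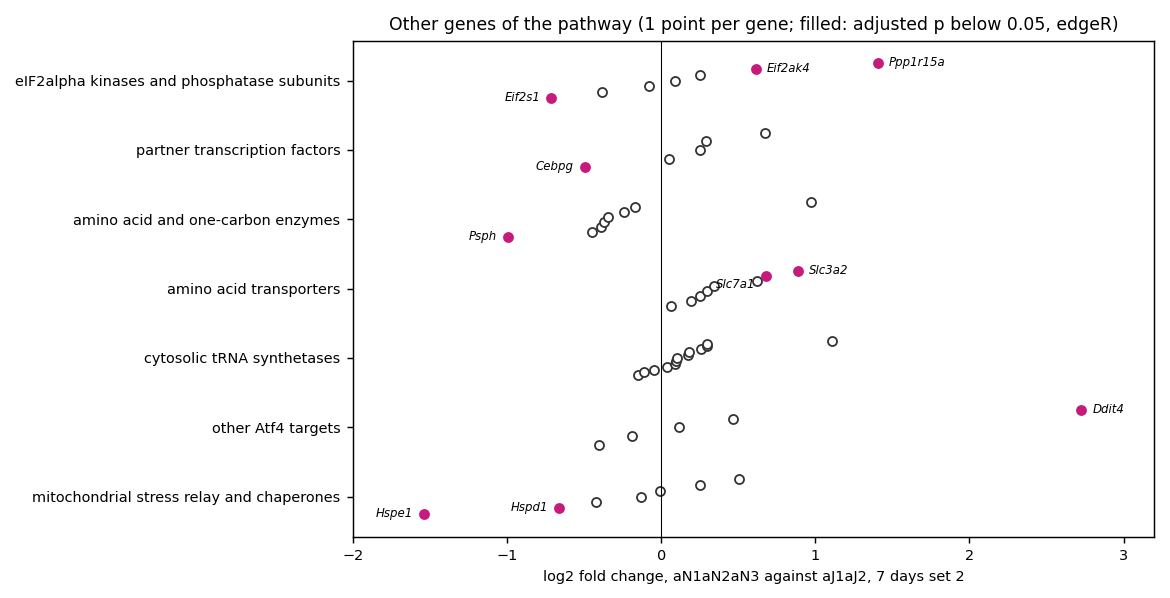
Log2 fold change of the 53 other pathway genes tested in aN1aN2aN3 against aJ1aJ2 at 7 days set 2, by list, 1 point per gene; filled and named points were called by edgeR. Ddit4 at 2.73 and Hspe1 at -1.54 are the ends of the range, and all 8 amino acid transporters lie above 0.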

How the data were processed

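RNA was measured in 50 thyroid libraries, sequenced as single-end 50-base reads per the labels' protocols. The authors deposited 2 tables: read counts per gene, whole numbers without normalization, and FPKM values. The submitters' processing notes name GSNAP and limma; neither they nor the labels give versions, genome build, annotation or use of strand. Groups and replicate numbers come from the titles, and 0 columns lacked a library. Ensembl IDs were matched to symbols (52403 genes, 233 without one), and overlapping exons were read from GENCODE's mouse annotation of GRCm38. FPKM values were set side by side only within a group, since their scaling falls into blocks of 30 and 20 libraries. In 100 replicate pairs no counts agreed within sampling noise (smallest chi-square 17.1 per degree of freedom).

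Counts were tested with edgeR 4.0.16 in R 4.3.3 (TMM, filterByExpr with minimum count 10 and total 15, glmQLFit robust, glmQLFTest; two-sided, Benjamini-Hochberg over all genes tested). The groups of 15 hours, of 5 days and of each set at 7 days were fitted together. Tests between times used both times, or for 7 days all 50 libraries, and between sets both sets. Fold changes use the TMM factors of each fit. Alternatives were RLE factors, no count filter, DESeq2 1.42.0, limma 3.58.1 on voom weights or on log2 FPKM with pseudocounts 0.1 and 1, other libraries in the fit, Tg or muscle share as a covariate, a replicate block, and leaving out each library. The fits were tested on simulated data. All 10 members are described, with at most 3 pathway genes per direction among those called. The members and lists were chosen with earlier results of these data known. The TGNTGCAA letters and the relations with tissue makeup were added after seeing the data. Of the genes most like the members, 1 is not reported here. Precision is set by 5 libraries a group and, for Phgdh, by low counts.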

Additional observations from a re-analysis of the deposited data

Results flagged for a closer look

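In 18 of 100 sets of 5 values (10 members in 10 groups) the highest or lowest library lay farther from its nearest neighbour than Dixon's 95% critical value of 0.71 of the range allows. For independent sets of normal values about 1 in 20 would do so. These are CPM values without logs, and the 100 sets share the same 50 libraries, so the 18 cannot be set against that rate. The 18 values came from 13 libraries. RW 5 days replicate 3 held 3 of them: Atf4 at 394.1, Atf5 at 107.1 and Chac1 at 33.0 CPM, all high on the TMM scale, with the lowest Tg share of the 50 libraries. In aJ1aJ2 7 days set 1 replicate 2, Atf4 (231.7) and Chac1 (117.5) were high and Sesn2 (24.1) was low. Chac1 was also high in aJ1aJ2 15 hours replicate 3 (67.7), aJ1aJ2 5 days replicate 3 (57.3) and aN1aN2aN3 replicate 1 (25.8), and in the first of these Trib3 was low at 3.63 CPM. Atf4 was high in aJ1aJ2 7 days set 2 replicate 4 (216.4) and in aN1aN2 15 hours replicate 5 (267.4), and Atf5 in aN1aN2 5 days replicate 1 (62.3). Asns was high in RW 7 days set 1 replicate 5 (40.1) and low in aN1aN2aN3 replicate 4 (34.9). Trib3 was high in RW 15 hours replicate 1 (7.67), and Phgdh was high in aN1aN2 5 days replicate 4 (1.44) and low in aN1aN2aN3 replicate 2 (0.387).

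The Ddit3 effect of aN1aN2 differed between 5 days and 15 hours by a log2 difference of -1.33, by the contrast over both times.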

How the results depend on the processing

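With 0 members called in the main fit, aJ1aJ2 at 5 days had 4 under voom with library quality weights (next to 3475 of all genes), and 1 each under DESeq2 (477 genes), in a fit of all 50 libraries (403) and with the muscle (1178) or the Tg share (1489) as a covariate. For aN1aN2 at 5 days the same settings gave 3 (voom, 1507 genes), 0 (DESeq2, 486), 1 (all 50 libraries, 671), 2 (muscle share, 843) and 3 (Tg share, 727), and Sesn2 turned to a log2 fold change of 0.13 under the muscle share. For aJ1aJ2 at 7 days set 1 voom called 1, Psat1, next to 621 genes. In set 2 the Tg share left 0 of 4 members and 3 of 3614 genes. The Ddit3 change of effect under aN1aN2 was lost without the count filter (0 members). The causes were not tested. Apart from leaving out a library, no other alternative moved a count of called members by over 1.5 times, though voom in set 2 called Psat1 and lost Atf5.

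Leaving out 1 library gave 3 to 4 called members in set 2, 0 to 1 for the change of the aN1aN2 effect, 3 to 6 between the aJ1aJ2 sets and 0 in every other comparison. Genes called over the whole table then ranged from 35 to 127 for aJ1aJ2 and from 120 to 444 for aN1aN2 at 15 hours (106 and 311 with all libraries), from 0 to 197 and from 0 to 9 at 5 days (33 and 0), from 0 to 20 in set 1 (0) and from 2042 to 4305 in set 2 (3614). The lowest came without RW 15 hours replicate 2, RW 15 hours replicate 4, aJ1aJ2 5 days replicate 2 and aN1aN2aN3 replicate 3, and both highest values at 5 days without RW 5 days replicate 3. Over the other settings they ranged from 0 to 318, 186 to 935, 0 to 3475, 0 to 1507, 0 to 621 and 3 to 8214.

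A pairing by replicate number was neither shown nor excluded. In no comparison did all 5 same-numbered pairs correlate above 0.1, and at most 2 of 5 libraries were closest to their own number. For aN1aN2 at 15 hours and aJ1aJ2 at 5 days 4 of 5 such pairs were above 0.1. Their highest values were 0.757 and 0.678, next to 0.697 and 0.649 for libraries of different numbers. With the replicate block 3 members were called in set 2 (Atf5 lost, adjusted p = 0.104) among 2100 genes, and 0 in the other 5 antibody comparisons. The block was not run between times or between sets.

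Of 100 member values (10 members in 10 comparisons) 21 changed sign under at least 1 alternative and 35 without at least 1 library, and 0 of these were called. In set 2 Atf4 (-0.05) kept its sign in 4 of 10 alternatives and reached 0.86, Chac1 (-0.18) kept it in 4 of 10 and reached 1.62, and Phgdh (-0.32) kept it in 8 of 10 and reached 0.84. For aN1aN2 at 5 days Asns (0.06) went down to -0.50, Psat1 (0.25) to -0.19 and Phgdh (0.39) to -0.17, and Trib3 (-0.08) up to 0.22.

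The unscaled library size gave 21 in place of 14 member pairs, and the pair of Atf4 and Psat1 was lost. RLE factors shifted the median over the members by at most 0.028 (log2) in any comparison. Depth limited Phgdh most.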
